A study of Homo sapiens with 6 samples.

Results

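The 10 genes described here encode the proteins that license replication origins and form the replicative helicase: MCM2, MCM3, MCM4, MCM5, MCM6 and MCM7, the 6 subunits of the helicase, and MCM10, CDC6, CDT1 and CDC45, its 4 loaders and activators. The rule names the genes and uses no measured value, although the list was drawn up with earlier results of these data known, and all 10 were found among the 58735 genes of the table. The cells are C4-2B MDVR, an enzalutamide-resistant subline of C4-2B, which is a human prostate cancer line. After 2 days of treatment they were profiled by paired-end mRNA sequencing in 6 libraries, 1 per group, so there were no replicates. The control received the vehicle DMSO. A pair of groups received PTUPB, which inhibits both soluble epoxide hydrolase and cyclooxygenase-2, at 10 or 20 uM, and another received enzalutamide, an antiandrogen, at 20 uM. The last 2 groups combined enzalutamide with PTUPB at 10 or 20 uM; the enzalutamide dose of the combinations is not on their labels and was taken to be the same. All groups share the resistant background of a single cell line.

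Before S phase, the origin recognition complex on DNA recruits CDC6 and CDT1, which load the ring of MCM2 to MCM7 around the double strand in an inactive form. At the start of S phase, kinases turn the loaded ring into an active helicase by recruiting CDC45 and the GINS complex, and MCM10 is needed for its activation. The genes are classical targets of the E2F transcription factors, are transcribed mainly in cycling cells, and are often high in proliferating tumours, prostate cancer included. In bulk RNA, fewer cells transcribing a gene and less RNA of it per cell cannot be told apart.

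Because the genes are known for shared control by E2F, their promoters were read from RefSeq (GRCh38.p14) as windows of 300 bases, from 250 before to 50 after the start of transcription. Windows were found for 8 of the 10 genes, in 12 windows. They were searched on both strands for 4 octamers of the classical E2F site, TTTCGCGC, TTTGGCGC, TTTCCCGC and TTTGCCGC; overlapping matches were joined into 1 stretch. At least 1 octamer was present in 6 of the 12 windows, in MCM2, MCM3, MCM6, MCM7, CDC6 and CDT1, against 3.31% of all 35116 windows. CCAAT, the box bound by NF-Y, was present on either strand in 9 of the 12 windows, from 6 of the 8 genes, against 34.6% of all. MCM7 and CDC45 have 3 windows each, some of which overlap, so windows of these genes are not independent. None of the 4 octamers was present in any window of CDC45. Variants of the site were not searched. TTTGGCGG, 1 letter from TTTGGCGC, is present in the windows of MCM10, CDC6 and CDT1 and in a window of CDC45. How many of all windows hold it was not counted. The windows of MCM2, MCM3, MCM6 and CDC6 are shown because they hold an octamer. That of MCM10 is shown because it holds none of the 4, although MCM10 is among the genes with the largest differences below. CDC6 is the gene that departed from the others. Capitals mark the octamers. MCM2 (chr3:127598161-127598460, plus strand) has 1 palindromic stretch at positions +3 to +14 from the start, MCM6 (chr2:135876394-135876693, minus strand) has 2 stretches of 12 bases, each of 2 overlapping octamers on opposite strands, at -152 to -141 and -90 to -79, MCM3 (chr6:52284693-52284992, minus strand) has 1 octamer at -174 to -167 and 1 at -4 to +4, and CDC6 (chr17:40287629-40287928, plus strand) has 1 at +8 to +15. The MCM10 window is chr10:13161308-13161607, plus strand. A match describes these letters and is not evidence of binding.
MCM2: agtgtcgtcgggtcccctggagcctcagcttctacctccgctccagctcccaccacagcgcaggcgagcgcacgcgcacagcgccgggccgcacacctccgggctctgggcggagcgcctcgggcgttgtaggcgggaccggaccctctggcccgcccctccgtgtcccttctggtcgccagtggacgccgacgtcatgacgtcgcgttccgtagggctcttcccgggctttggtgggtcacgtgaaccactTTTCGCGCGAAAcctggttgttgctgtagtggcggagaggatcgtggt
MCM3: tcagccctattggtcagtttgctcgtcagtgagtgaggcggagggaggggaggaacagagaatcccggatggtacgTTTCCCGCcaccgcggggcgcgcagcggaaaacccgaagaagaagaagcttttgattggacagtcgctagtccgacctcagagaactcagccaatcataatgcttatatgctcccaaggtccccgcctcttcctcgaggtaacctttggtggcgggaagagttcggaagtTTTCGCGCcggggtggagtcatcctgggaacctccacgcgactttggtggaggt
MCM6: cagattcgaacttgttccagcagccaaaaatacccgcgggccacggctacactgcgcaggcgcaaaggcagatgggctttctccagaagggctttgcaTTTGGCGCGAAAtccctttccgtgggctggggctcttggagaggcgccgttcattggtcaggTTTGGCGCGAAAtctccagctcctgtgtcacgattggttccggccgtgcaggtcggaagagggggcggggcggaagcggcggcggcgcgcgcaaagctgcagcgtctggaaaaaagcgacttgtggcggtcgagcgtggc
CDC6: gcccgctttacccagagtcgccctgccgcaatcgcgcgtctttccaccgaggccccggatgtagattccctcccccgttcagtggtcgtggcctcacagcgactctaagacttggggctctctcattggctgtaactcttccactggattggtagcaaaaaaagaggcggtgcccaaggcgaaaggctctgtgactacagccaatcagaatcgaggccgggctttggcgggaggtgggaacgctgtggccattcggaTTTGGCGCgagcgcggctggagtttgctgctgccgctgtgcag
MCM10: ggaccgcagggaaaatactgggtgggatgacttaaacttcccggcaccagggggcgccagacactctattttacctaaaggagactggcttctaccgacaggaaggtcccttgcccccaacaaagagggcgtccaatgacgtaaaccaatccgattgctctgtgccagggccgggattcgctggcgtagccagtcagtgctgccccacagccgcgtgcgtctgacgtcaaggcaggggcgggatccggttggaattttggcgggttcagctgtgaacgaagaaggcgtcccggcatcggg

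The libraries held 20156523 to 29450436 fragments assigned to genes. Values are FPKM, fragments scaled by exon length and by a factor per library, which can be compared between genes. That factor did not follow the total of assigned fragments, and how it was set is not given. Against the control, the median over all genes was 0.00 with enzalutamide and 0.02 in the 20 uM combination. Rescaled by total fragments, these medians were -0.16 and -0.19, so all-gene medians near 0 depend on the deposited scaling. Of 10 markers of prostate luminal epithelium, 9 or 10 were at 1 FPKM or more in each library, and their summed level was 687 FPKM at 20 uM PTUPB and 730 with enzalutamide added, against 1144 to 1290 in the other 4 libraries. KLK3, the gene of prostate-specific antigen, was the marker below 1 FPKM in the 20 uM libraries. The summed levels of 5 basal markers (0.718 to 1.67 FPKM), 7 blood markers (0.012 to 0.351) and 5 endothelial markers (0.073 to 0.496) were near 0, with PTPRC of blood at 0 to 0.0297 and PECAM1 of endothelium at 0 to 0.0274. The 8 stromal markers summed to 16.0 FPKM in the control and 7.67 to 9.61 in the treated libraries, and VIM and COL1A1, which made up most of it, differed in opposite directions. VIM was at 11.9 FPKM in the control and 3.11 and 2.46 in the 20 uM libraries (adjusted p = 0.072, limma), while COL1A1 was at 2.38, 4.60 and 6.47 and rose by 0.96 (adjusted p = 0.016). The part of these differences in the results was not tested.

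At 20 uM PTUPB, 9 of the 10 licensing and helicase genes fell, against 18.2% of all tested genes. Each of the 6 helicase subunits fell, as did CDT1, MCM10 and CDC45, with effects of -2.75 to -1.26 on a log2(FPKM + 1) scale, while CDC6, the ATPase that loads the helicase, did not pass the test. At 10 uM of PTUPB and with enzalutamide, none of the 10 passed, nor did any other tested gene (0.0%), so these counts say nothing particular to them. In the single library with 10 uM PTUPB and enzalutamide, 7 of the 10 lay lower than the control by log2 1 or more, against 2.58% of all genes.

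The 6 helicase subunits had moderate levels in the control, between 10.5 FPKM for MCM5 and 46.3 FPKM for MCM7. MCM2 (chromosome 3, 127598223 to 127622436) stood at 20.8 FPKM in the control, 15.1 at 10 uM PTUPB and 2.42 at 20 uM, and with enzalutamide at 14.8, 7.83 and 3.46. MCM3 (chromosome 6, 52264009 to 52284881) stood at 24.1, 21.2 and 4.55 FPKM, and with enzalutamide at 22.6, 12.6 and 2.25. Both were lowest in the libraries with 20 uM PTUPB, intermediate in the 10 uM combination and highest in the control. MCM4, on chromosome 8, had 22.2, 17.3 and 2.71 FPKM at 0, 10 and 20 uM, and 15.3, 8.73 and 2.20 with enzalutamide. MCM5 (chromosome 22, 35400063 to 35425430) had 10.5, 9.14 and 2.09 FPKM, and 6.56, 4.47 and 2.57 with enzalutamide. In these subunits the 20 uM libraries did not overlap the other 4. The share of all tested genes separated in the same way was not counted, so this describes the values only.

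MCM6 and MCM7 kept a higher level than the other subunits at 20 uM. MCM6 (chromosome 2, 135839626 to 135876426) was at 20.1, 16.2 and 6.56 FPKM at 0, 10 and 20 uM, and at 18.4, 11.4 and 8.40 with enzalutamide. MCM7 (chromosome 7, 100092728 to 100101940), the most abundant subunit in every library, was at 46.3, 34.1 and 11.1 FPKM, and at 32.2, 15.2 and 16.7 with enzalutamide. For MCM7 the 20 uM combination lay above the 10 uM combination, so the 20 uM libraries overlap the other 4. MCM7 and MCM2 overlap genes on the opposite strand, and with the strand setting of the counting unknown their values are uncertain. AP4M1, which overlaps MCM7, lay between 3.30 and 3.98 FPKM, and TPRA1, which overlaps MCM2, between 8.73 and 12.7 FPKM. ENSG00000285600, antisense to MCM2, was at 1.56, 1.53 and 0.807 FPKM at 0, 10 and 20 uM, and at 1.55, 2.15 and 0.275 with enzalutamide. It was lowest in the 20 uM libraries, as MCM2 was, while AP4M1 and TPRA1 did not have the order of their partners.

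CDT1, CDC6, MCM10 and CDC45 act around the ring rather than in it. CDT1 (chromosome 16, 88803213 to 88809258), which brings the ring to the origin, was at 9.95, 8.91 and 1.57 FPKM at 0, 10 and 20 uM, and at 8.19, 4.61 and 2.11 with enzalutamide. CDC45 (chromosome 22, 19479459 to 19520612), the cofactor that completes the active helicase with GINS, was at 13.3, 11.9 and 0.833 FPKM, and at 11.6, 3.50 and 1.19 with enzalutamide. Both had their lowest values in the 20 uM libraries, without overlap, a separation that was not counted over all tested genes. MCM10 (chromosome 10, 13161554 to 13211104) was at 6.54, 5.48 and 0.031 FPKM, and at 5.03, 1.84 and 0.0999 with enzalutamide. Those values correspond to 1066, 883, 4, 775, 265 and 10 fragments. MCM10 was thus close to undetected in both 20 uM libraries; the 4 fragments have an exact Poisson 95% interval of 1.09 to 10.2, for counting error only.

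CDC6 (chromosome 17, 40287633 to 40304657) had another order. It stood at 11.0 FPKM in the control, 8.58 at 10 uM PTUPB and 5.19 at 20 uM, and at 9.20, 4.52 and 13.98 FPKM with enzalutamide. Its highest value was in the 20 uM combination, where the other loaders and activators were low, and its lowest in the 10 uM combination. Among the 10 genes ordered by FPKM, CDC6 was seventh in the control and second in the 20 uM combination.

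**Figure D1:**
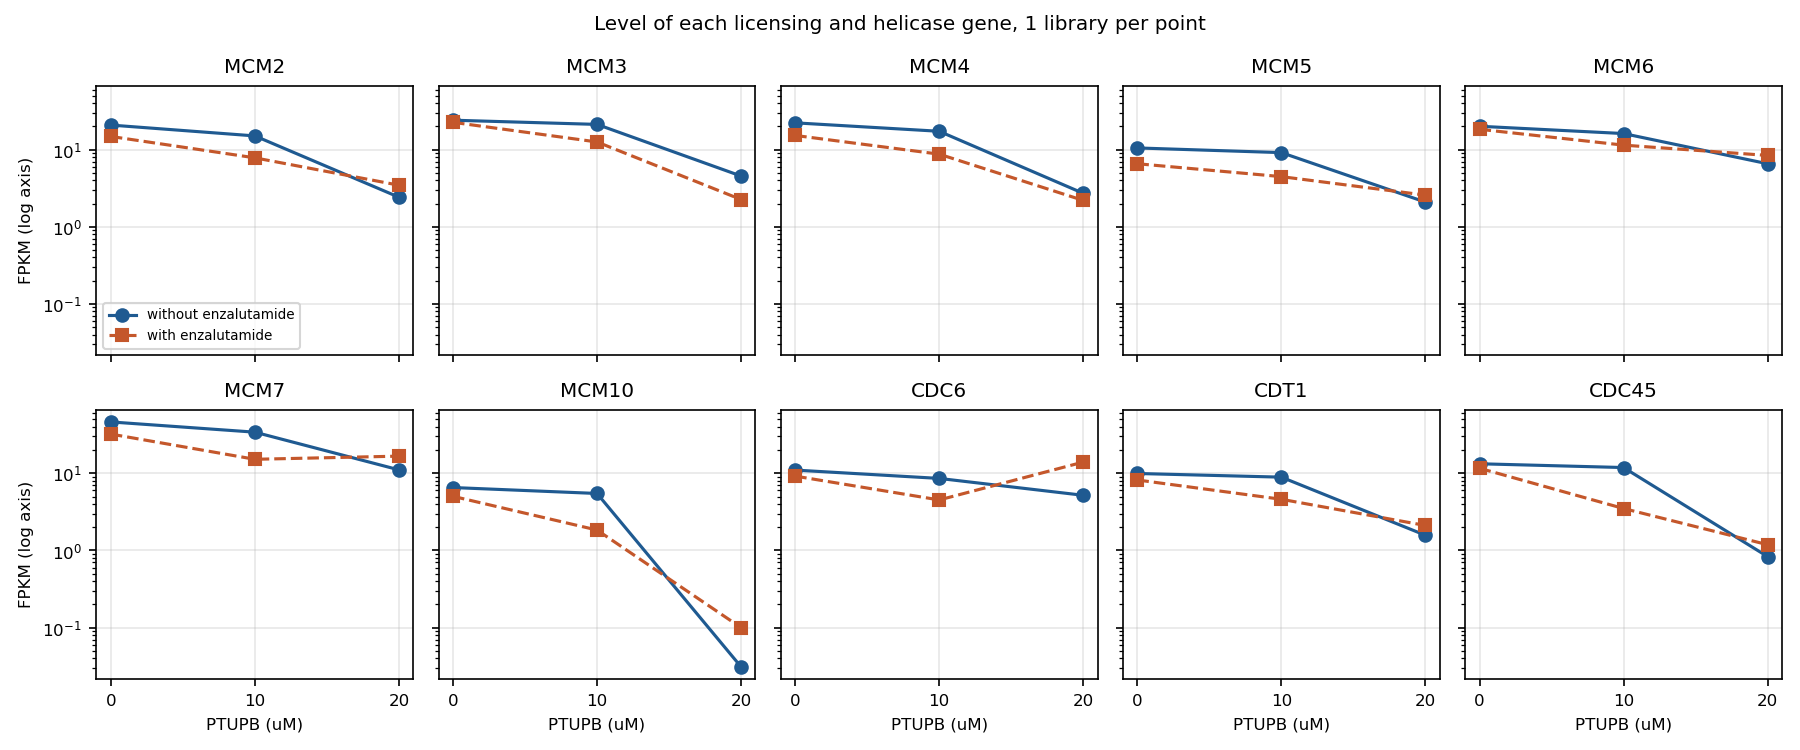
FPKM of the 10 genes (panels) in the 6 libraries on a log axis, 1 library per group, against PTUPB dose in uM, without and with enzalutamide. MCM10 drops to 0.031 FPKM at 20 uM, and CDC6 is the gene whose 20 uM combination, at 13.98 FPKM, lies above its control at 11.0.

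The first comparison was PTUPB at 20 uM against no PTUPB, over the pair of libraries without and the pair with enzalutamide. It was fitted with limma's moderated test over 12960 genes with a mean of 1 FPKM or more, on log2(FPKM + 1), which understates the change of low genes. PTUPB was a factor of 3 levels, enzalutamide a second factor, and p-values were adjusted by the Benjamini-Hochberg method with calls below 0.05. With 1 library per group the p-values measure departures from additive effects, not replicate spread. All 10 genes passed the level filter, and 9 fell, against a background of 18.2% of all tested genes falling. The median effect over the 10 genes was -2.04, and over all tested genes 0.00. The 4 scalings tried, the deposited FPKM, TPM, total fragments and limma-voom on recovered fragments, gave all 10 a negative sign.

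CDC45 and MCM10 had the largest fitted effects, with MCM3 and MCM4 close behind, and differences between genes were not tested. CDC45 fell by 2.75 (SE 0.42, adjusted p = 0.0085, limma) and MCM10 fell by 2.66 (SE 0.34, adjusted p = 0.0056). In FPKM without enzalutamide, CDC45 was 16.0-fold lower at 20 uM than in the control (counting interval 12.2 to 21.3) and MCM10 was 211-fold lower (82.0 to 774). Of the helicase subunits, MCM3 fell by 2.52 (SE 0.22), MCM4 fell by 2.50 (SE 0.21) and MCM2 fell by 2.25 (SE 0.31), with adjusted p-values of 0.003, 0.003 and 0.0066. These 3 subunits were 5.29-, 8.19- and 8.61-fold lower in the 20 uM library than in the control. MCM5 fell by 1.49 (SE 0.29, adjusted p = 0.015), MCM7 fell by 1.44 (SE 0.39, adjusted p = 0.039) and MCM6 fell by 1.26 (SE 0.23, adjusted p = 0.013). CDT1 fell by 1.83 (SE 0.28, adjusted p = 0.0084). CDC6 had an effect of -0.20 (SE 0.48, adjusted p = 0.77).

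The count of 9 differed with the libraries and genes fitted. It was 2 without the enzalutamide library (MCM3 and MCM4), where 1.61% of all genes fell, and 4 without the control (MCM3, MCM4, MCM10 and CDC45), where 4.75% did. It was 8 without the 20 uM PTUPB library (21.0% of all genes) and 10 without the 20 uM combination (18.0%). MCM7 was the call lost without the 20 uM PTUPB library. With no filter on low values, 31321 genes entered the test and 2 of the 10 fell, again MCM3 and MCM4, against 2.1% of all genes. The effects of the 9 genes stayed negative in each of these fits.

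**Figure D2:**
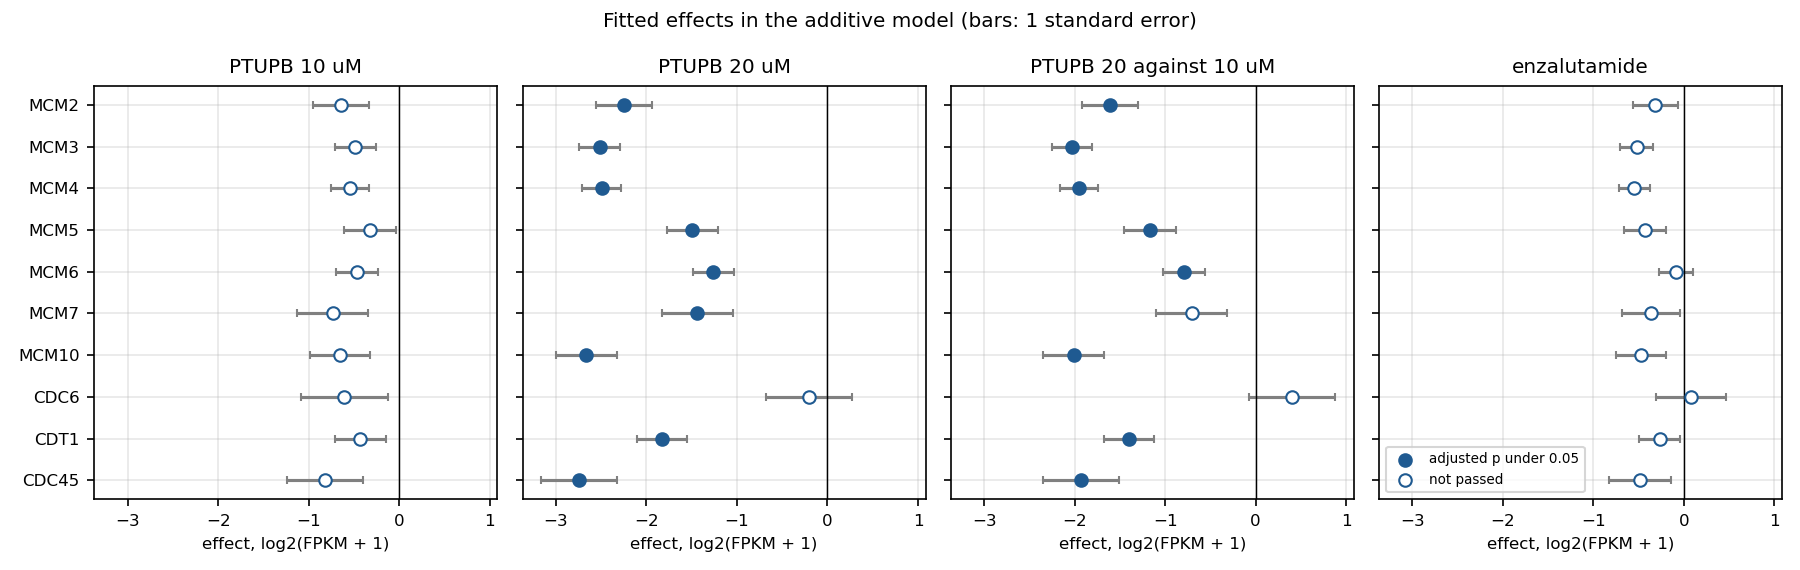
Fitted effects in log2(FPKM + 1) for the 10 genes (rows) with bars of 1 SE from limma, for the PTUPB and enzalutamide contrasts (panels); filled points passed at an adjusted p below 0.05. At 20 uM PTUPB 9 of the 10 passed below 0, from MCM6 at -1.26 to CDC45 at -2.75, and at 10 uM none passed.

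The dose step itself, 20 against 10 uM of PTUPB, was tested in the same model. Of the 10 genes, 8 fell, against 16.9% of all tested genes falling, with a median of -1.50 against 0.02 over all genes. MCM3 fell by 2.03 (adjusted p = 0.0051, limma), MCM10 fell by 2.01 (adjusted p = 0.011), MCM4 fell by 1.95 (adjusted p = 0.005) and CDC45 fell by 1.93 (adjusted p = 0.021). MCM2 fell by 1.61 (adjusted p = 0.016), CDT1 fell by 1.40 (adjusted p = 0.017), MCM5 fell by 1.17 (adjusted p = 0.029) and MCM6 fell by 0.79 (adjusted p = 0.046). The MCM6 call was lost when values were rescaled to TPM (adjusted p = 0.057), in limma without the intensity trend, and in each fit without 1 library other than the 20 uM combination. The MCM5 call was lost without the control, the 10 uM PTUPB, the enzalutamide or the 10 uM combination library, and the CDC45 call without the 10 uM or the 20 uM PTUPB library. MCM7, with an effect of -0.71 (adjusted p = 0.21), and CDC6, with 0.41 (adjusted p = 0.53), did not pass. The count was 2 without the 10 uM PTUPB library (MCM3 and MCM4), where 3.76% of all genes fell. It was 6 without the control or the enzalutamide library (10.6% of all genes in each) and 6 without the 10 uM combination (5.47%). It was 9 without the 20 uM combination, when MCM7 passed (16.0%), and 2 with no filter on low values (1.41%).

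At 10 uM against no PTUPB, 0 of the 10 genes passed, as did 0.0% of all tested genes. At an unadjusted p below 0.05 limma counted 1 of the 10, MCM4, and 480 of all tested genes, and limma-voom called 0. All 10 effects were below 0, from -0.82 for CDC45 to -0.33 for MCM5, with adjusted p = 0.98 for each. Their median was -0.58 against -0.03 over all genes. In the single libraries without enzalutamide, 0 of the 10 were lower than the control by log2 1 or more, against 0.772% of all genes.

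Differences between single libraries have no replicate check and were counted at log2 1 or more. Between 20 uM PTUPB and the control, 9 of the 10 genes were lower, against 12.7% of all tested genes, with CDC6 at -0.96. Between 20 and 10 uM without enzalutamide, 9 were lower, against 13.1% of all genes, with CDC6 at -0.63. Several of these pairs share a library, so they are not independent of each other.

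With enzalutamide present, the 20 uM combination lay lower than enzalutamide alone by log2 1 or more in 8 of the 10 genes, against 15.8% of all genes. MCM7 differed by -0.91 and CDC6 by 0.55. The 10 uM combination was lower than enzalutamide alone in 3 genes, MCM7, MCM10 and CDC45, against 1.57% of all genes. Between the combinations, the step from 10 to 20 uM left 4 genes lower by log2 1 or more, against 14.7% of all genes, and 1 higher, CDC6 at 1.44, against 13.7% of all genes being higher. MCM7 differed by 0.13 across that step, a sign that turned when values were rescaled by total fragments. In FPKM, CDC6 was 3.10-fold higher in the 20 uM than in the 10 uM combination (counting interval 2.82 to 3.40).

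Enzalutamide, tested over its 3 matched pairs, called 0 of the 10 genes, as it did 0.0% of all tested genes. At an unadjusted p below 0.05 limma counted 2 of the 10, MCM3 and MCM4, and 626 of all genes, and limma-voom called 0 of the 10 and 1 of all genes. Effects ran from -0.55 for MCM4 to 0.08 for CDC6, with adjusted p-values of 0.92 to 0.98, and the sign of CDC6 turned negative under TPM and under total fragments. In the single library, 0 of the 10 were lower than the control by log2 1 or more, against 1.37% of all genes, and all 10 lay below it, with a median of -0.29 against 0.00 over all genes. That median was -0.73 under TPM (all genes -0.41), where 1 gene reached log2 1, and -0.45 by total fragments (all genes -0.16).

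The difference made by adding enzalutamide was opposite in sign at the PTUPB doses for most of the 10 genes. The share of all tested genes that switched sign was not counted. At 10 uM, all 10 were lower in the combination than with PTUPB alone, with a median of -0.88 against -0.01 over all genes. The difference reached log2 1 in 3 of them, against 2.01% of all genes: CDC45 at -1.52, MCM10 at -1.19 and MCM7 at -1.12. Rescaled to TPM, 5 of the 10 reached it. In FPKM, CDC45 was 3.40-fold lower in the 10 uM combination than with 10 uM PTUPB alone (counting interval 2.96 to 3.90). At 20 uM, 8 of the 10 were higher in the combination (7 under TPM, where MCM5 turned lower), with a median of 0.26 against 0.04 over all genes. That median was 0.12 under TPM (all genes -0.24) and 0.13 by total fragments (all genes -0.12). None was lower by log2 1 or more, against 2.9% of all genes, and 1 was higher, CDC6 at 1.28, against 3.83% of all genes. MCM3, at -0.77, and MCM4, at -0.22, were the 2 that lay lower, while MCM10, at 0.09, rested on 4 and 10 fragments. CDC45, at 0.26, rested on 56 and 62 fragments, and the counting interval of its 1.43-fold difference, 0.977 to 2.08, includes no difference.

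Against the control, 7 of the 10 genes were lower by log2 1 or more in the 10 uM combination, against 2.58% of all genes, with a median of -1.19. In the 20 uM combination 9 were lower, against 15.0% of all genes, with a median of -2.05 and CDC6 at 0.32. The combination was also set against the sum of the differences of each agent alone. At 10 uM it was lower than that sum in all 10 genes (8 under TPM), from -0.29 in MCM5 to -1.34 in CDC45, with a median of -0.57 against -0.02 over all genes, or -0.25 against 0.34 under TPM. At 20 uM it was above the sum in 9 of the 10, with a median of 0.48 against 0.04, or 0.88 against 0.14 under TPM, and MCM3, at -0.68, was the exception. MCM10, at 0.415, was bound to lie above the sum, which falls below 0, a level that log2(FPKM + 1) cannot reach. CDC6 stood 1.51 above the sum and MCM7 1.06 above it. These 4-library values leave no residual degree of freedom and have no test. An interaction of enzalutamide with linear PTUPB dose, which has 1 residual degree of freedom, called 0 of the 10 and 0.0% of all genes. A linear term does not follow a difference that is lowest at 10 uM, so this count does not decide on the switch of sign. Adjusted p-values of the 10 were 0.55 to 0.88, none had an unadjusted p below 0.05 (1219 of all genes did), and limma-voom called 0 of the 10 and 73 of all genes.

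**Figure D3:**
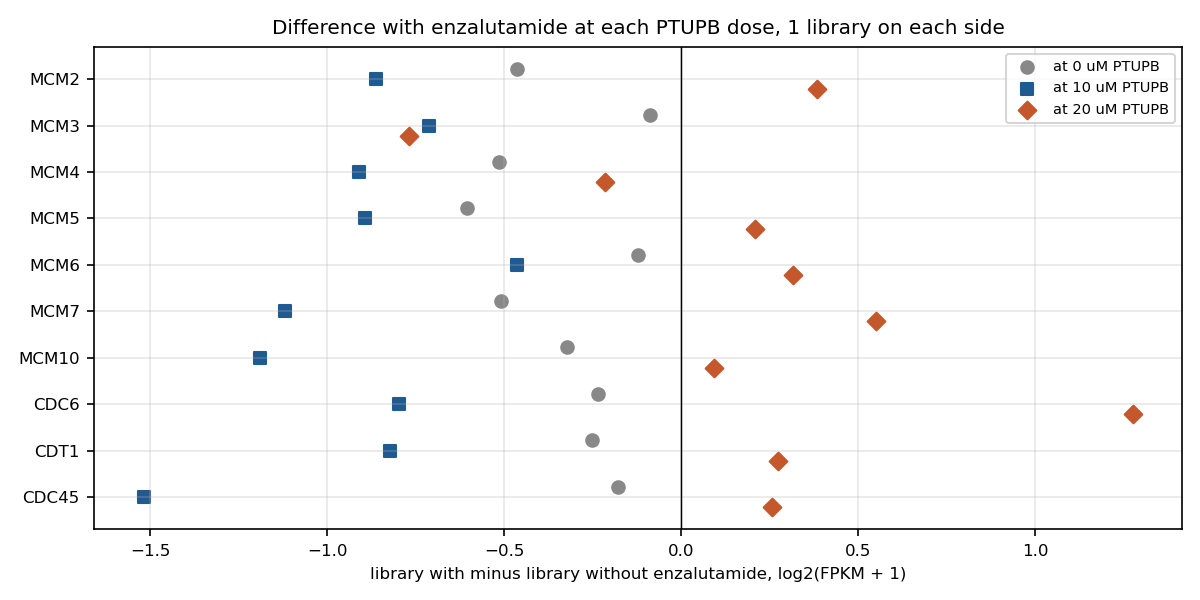
Difference in log2(FPKM + 1) (x axis) made by adding enzalutamide at 0, 10 and 20 uM PTUPB, as coloured points in 1 row per gene, each the difference of 1 pair of libraries. At 10 uM all 10 genes are below 0, and at 20 uM 8 are above it (7 under TPM), with CDC6 at 1.28 and MCM3 at -0.77.

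CDC6, which did not pass at 20 uM, had opposite differences in the 2 matched pairs. Without enzalutamide CDC6 was 2.12-fold lower at 20 uM than in the control (counting interval 1.94 to 2.32), and with enzalutamide it was 1.52-fold higher than with enzalutamide alone (1.41 to 1.64). Left without the 20 uM combination, the fit gave CDC6 an effect of -1.10 with an adjusted p of 0.032. Left without the 20 uM PTUPB library, the effect was 0.70, and without the control it was 0.04. Without the 20 uM PTUPB library, the step from 10 to 20 uM was 1.30 for CDC6 (adjusted p = 0.018, limma). In each of these fits a PTUPB dose is represented by 1 library, which is assumed to vary like the others, and 1 residual degree of freedom is left. The sign for CDC6 thus differed with the library left out.

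The 6 helicase subunits assemble with equal numbers of each in the ring, and their transcripts can be set side by side per length. Their summed level was 144 FPKM in the control, 113 at 10 uM PTUPB and 29.4 at 20 uM, and with enzalutamide 110, 60.2 and 35.6. MCM7 made up 32.2% of that sum in the control, 37.7% at 20 uM and 46.9% in the 20 uM combination. The share of MCM6 was 13.9% in the control and 22.3% and 23.6% in the same 20 uM libraries. The share of MCM4 was 15.4%, 9.23% and 6.17%, and that of MCM3 was 16.7%, 15.5% and 6.34%. The most abundant subunit stood 4.41-fold above the least abundant in the control (MCM7 over MCM5) and 7.60-fold above it in the 20 uM combination (MCM7 over MCM4). The subunit transcripts were thus more unequal there than in the control, in 1 library each. The same ratio was 5.31 at 20 uM PTUPB and 4.91 with enzalutamide alone. It lay below the control at 10 uM PTUPB, at 3.73, and in the 10 uM combination, at 3.40.

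**Figure D4:**
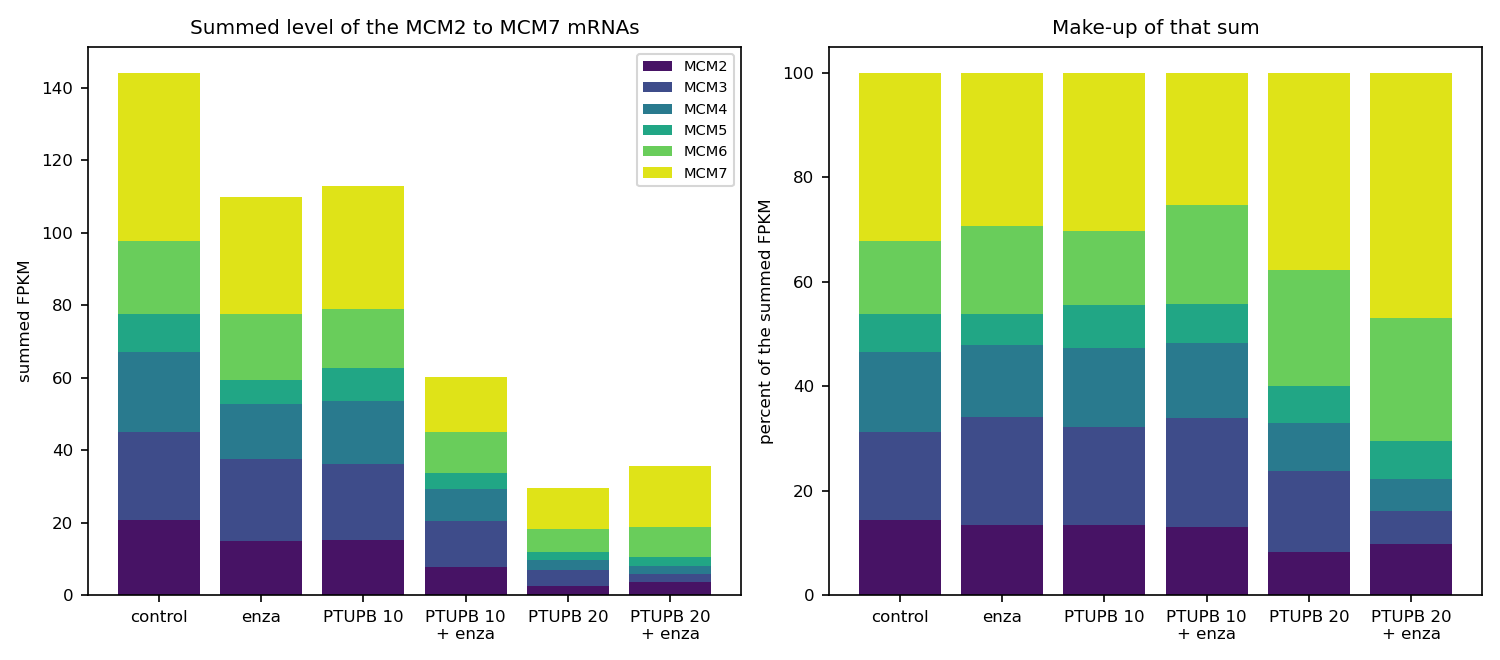
Summed FPKM of the 6 helicase subunit genes (left) and the share of each gene in that sum in percent (right), as stacked bars for the 6 libraries (enza, enzalutamide; PTUPB doses in uM). MCM7 takes 32.2% of the sum in the control and 46.9% in the 20 uM combination, while MCM4 goes from 15.4% to 6.17%.

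The loaders stood in other ratios to each other, and to geminin (GMNN), the inhibitor that binds CDT1, in the 20 uM libraries. The ratio of CDT1 to GMNN in FPKM was 0.687 in the control and 0.641 to 0.723 in the 10 uM and enzalutamide libraries, and 0.210 and 0.248 in the 20 uM libraries without and with enzalutamide. The ratio of CDC6 to CDT1 was 1.11 in the control, 3.30 at 20 uM and 6.63 in the 20 uM combination. Both ratios separated the 20 uM libraries from the other 4, and how often ratios of other genes do so was not counted.

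Over the 6 libraries, log2(FPKM + 1) of 9 of the 10 genes followed the mean of the others closely, with Pearson's r from 0.92 for MCM3 to 1.00 for MCM2. For CDC6 r was 0.21. With 6 libraries of 3 doses and shared normalization, r describes these libraries only. The 5 protein-coding genes outside the list whose pattern was most like the mean of the 10, of 2962 candidates that varied by an SD of 0.5 or more, were NDC80, DEPDC1B, KIF15, CDCA5 and CENPF, each with r = 0.998 over 6 libraries. NDC80, a kinetochore protein, had 8.38, 5.62 and 0.259 FPKM at 0, 10 and 20 uM, and 5.99, 1.83 and 0.545 with enzalutamide.

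Other replication genes were counted from lists written for this pathway: the origin recognition complex, licensing control, GINS and origin firing, polymerases, clamp and lagging strand, and fork protection. Of 71 listed genes 68 were tested, and at 20 uM PTUPB 33 of them fell (48.5%), 2 rose and 33 did not pass, where 18.2% of all tested genes fell. The count that fell was 11 without the control (4.75% of all genes), 1 without the enzalutamide library (1.61%) and 8 with no filter on low values (2.1%). In the origin recognition complex, which recruits CDC6, 2 of 6 fell, ORC1 at -2.23 (adjusted p = 0.014, limma) and ORC6 at -1.71 (adjusted p = 0.0071). ORC5, at -0.65 (adjusted p = 0.099), was among the 4 that did not pass. In licensing control, 6 of 11 fell, among them CCNA2, the S-phase cyclin, at -3.08, DTL, which targets CDT1 for destruction, at -2.31, and SKP2 at -1.73.

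Of the partners of CDC45 in the GINS and origin firing list, 9 of 12 fell, led by GINS1 at -2.62, RECQL4 at -2.22 and GINS4 at -1.84. The list median was -1.09 against 0.00 over all genes. Among polymerases and primase 5 of 11 fell, with POLE2 at -2.13, POLA1 at -1.39 and POLD1 at -1.35. Among clamp, clamp loader and lagging strand genes 9 of 16 fell, with CHTF18 at -1.90, DNA2 at -1.80 and RFC3 at -1.69. RFC2, a clamp loader subunit, rose by 1.20 (adjusted p = 0.015, limma), a call lost without the control (adjusted p = 0.10), without the enzalutamide library (adjusted p = 0.14) and with no filter (adjusted p = 0.07). RFC2 was at 22.3 FPKM in the control and at 45.9 and 49.0 in the 20 uM libraries. Of 12 fork protection and checkpoint genes 2 fell, CLSPN at -2.12 and TIMELESS at -1.24, a share near that of all tested genes (18.2%). HUS1, a subunit of the checkpoint clamp, rose by 1.33 (adjusted p = 0.0082). The HUS1 call was lost without the enzalutamide library (adjusted p = 0.11).

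Of 4 tested MCM-named genes outside the list 1 fell, MCM8, a helicase of recombination repair, at -1.27 (adjusted p = 0.0094, limma), where 18.2% of all tested genes fell. The MCM8 call was lost without the control (adjusted p = 0.079), without the enzalutamide library (adjusted p = 0.11) and with no filter (adjusted p = 0.061). MCMBP, a binding partner of the ring, had an effect of -0.23 (adjusted p = 0.53) and MCM3AP, an mRNA export factor also known as GANP, had 0.38 (adjusted p = 0.11). Of 13 genes of the E2F and RB family 6 fell, with E2F1 at -2.05, TFDP1 at -1.82 and E2F8 at -1.48, and a list median of -0.68. Of 12 mitotic proliferation markers 11 fell, with TOP2A at -3.24, AURKB at -3.12 and CDK1 at -2.96, and a median of -2.47, beside -2.04 for the 10 licensing and helicase genes. Of 12 housekeeping genes 3 fell and 1 rose, with a median of -0.10. Without the enzalutamide library, 0 of the mitotic markers and 0 of the E2F and RB genes passed; without the control, 4 and 1 did. At 10 uM PTUPB, for enzalutamide and for the interaction, no gene of these lists passed (limma).

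**Figure D5:**
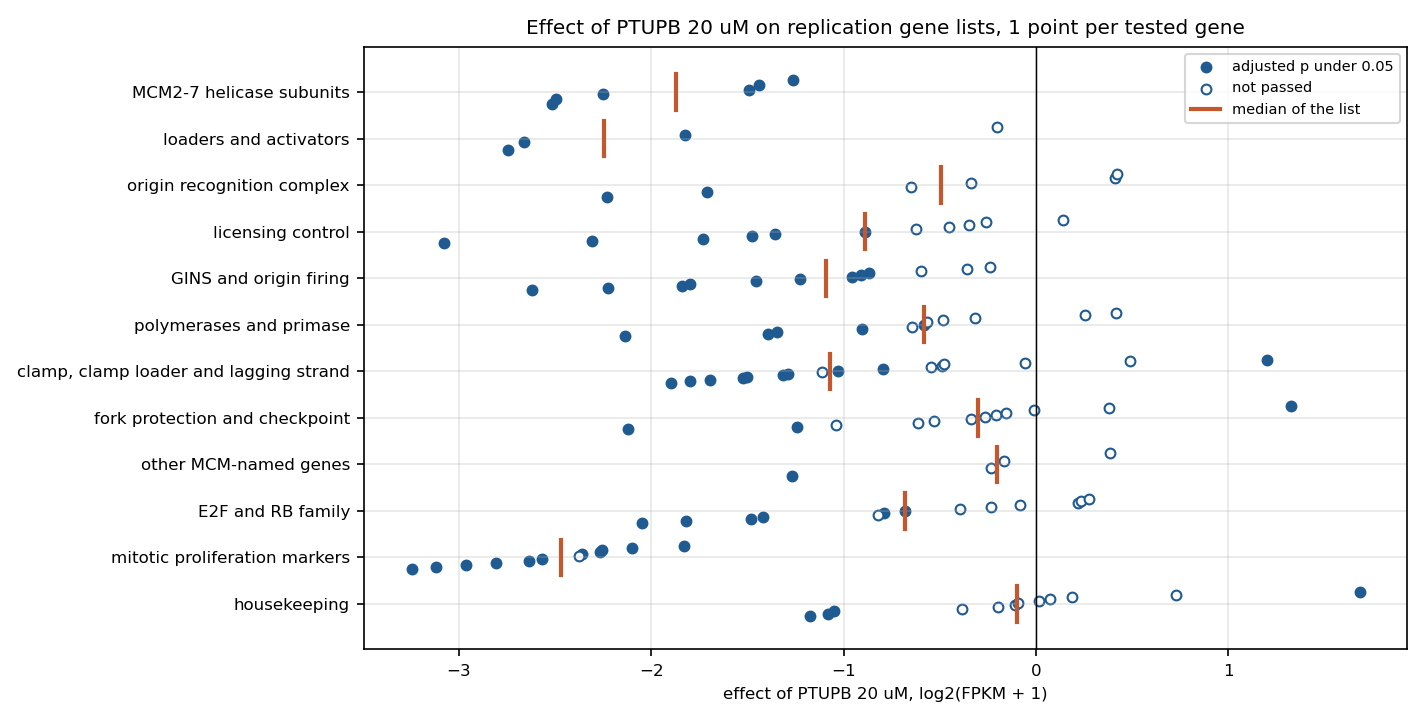
Effect of 20 uM PTUPB in log2(FPKM + 1) for the tested genes of each replication, E2F, mitotic and housekeeping list, 1 point per gene, filled where the adjusted p was below 0.05, with a bar at the median of each list. The helicase subunits lie between -2.52 and -1.26, CDC6 lies at -0.20, and RFC2 and HUS1 are above 0 at 1.20 and 1.33.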

How the data were processed

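The authors deposited 1 table of FPKM for 58735 genes in 6 libraries, made with HISAT and Cufflinks per the submitters' processing notes, without versions. The genome build and strand setting are not given in the sources used here. All identifiers matched GENCODE release 29 (GRCh38), which gave symbols, coordinates and exon lengths. Fragments were recovered from FPKM and exon length, as whole numbers within 0.05 fragments. Values were analysed as log2(FPKM + 1) by two-sided limma tests (version 3.58.1, R 4.3.3) with a trend of the variance on intensity, over 12960 genes with a mean of 1 FPKM or more. The additive model held PTUPB as 3 levels plus enzalutamide and left 2 residual degrees of freedom; the interaction model left 1. The fits were also run on simulated counts with additive changes only, which does not show how they behave where effects depart from additivity. Fold intervals are exact binomial at 95% and cover counting error only. The 10 genes span 4 to 6075 fragments per library. The 10 genes, the lists, the tests and the alternatives were chosen with earlier results of these data known. Named genes of each list are the 3 with the largest 20 uM effect and any called gene against the list's majority. Genes of similar pattern are the 5 with the highest Pearson's r. Alternatives were another pseudocount, other filters, TPM, total fragments, limma without trend, limma-voom, and each library left out in turn. Python 3.11.15 and matplotlib 3.10.9 were used for the rest.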

Additional observations from a re-analysis of the deposited data

Results flagged for a closer look

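Differences between effects are given here as values; each effect rests on 1 pair of libraries and the differences were not tested pair by pair. The interaction with linear PTUPB dose, the only interaction fitted here, called 0 of the 10 genes by limma (unadjusted p below 0.05 in 0) and 0 by limma-voom. The median enzalutamide difference of the 10 genes was -0.29 without PTUPB, -0.88 at 10 uM and 0.26 at 20 uM. A linear term does not follow that order, so its count does not decide on a switch of sign between the doses. The 20 uM PTUPB difference of CDC6, in log2(FPKM + 1), was 0.55 with enzalutamide and -0.96 without, opposite in sign and 1.51 apart.

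The difference made by enzalutamide was below 0 at 10 uM PTUPB and above 0 at 20 uM in 8 of the 10 genes (7 under TPM, where MCM5 was below 0 at 20 uM). For CDC6 it was -0.80 and 1.28, which are 2.07 apart, the widest gap of the 8. For CDC45 the gap was 1.77 and for MCM7 1.67. The counting interval of the CDC45 fold difference at 20 uM, 0.977 to 2.08, includes no difference. MCM10, with 4 and 10 fragments at 20 uM, had a gap of 1.28, and MCM2 one of 1.25. The gaps were 1.10 for MCM5, 1.10 for CDT1 and 0.78 for MCM6. MCM3 and MCM4 were below 0 at both doses. The share of all tested genes that switched sign in the same way was not counted.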

How the results depend on the processing

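The libraries are matched on the other agent within the additive model; no replicate block could be fitted, since each group holds 1 library and the labels carry no replicate numbers. For 20 uM PTUPB, the count of the 10 genes that passed was 9; it was 2 with no filter on low values, where more genes were tested, and 2 to 10 with 1 library left out. For 20 against 10 uM it was 8, then 2 with no filter and 2 to 9 with 1 library left out. Such a fit has fewer residual degrees of freedom. For 10 uM PTUPB and for enzalutamide the count was 0 in every fit without 1 library. Rescaled to TPM, the number of genes differing by log2 1 or more was 1 in place of 0 for enzalutamide against control. It was 5 in place of 3 for enzalutamide added at 10 uM PTUPB and 2 in place of 1 at 20 uM. Against control it was 10 in place of 7 in the 10 uM combination and 10 in place of 9 at 20 uM PTUPB. Between the combinations it was 6 in place of 5. It was lower for the 10 uM combination against enzalutamide (2 in place of 3) and for 20 against 10 uM PTUPB (8 in place of 9). TPM divides by the summed FPKM, which was 264004 in the control and 355658 with enzalutamide. The part of this in the counts was not tested. TPM moved the median effect of all genes by -0.12 for 10 uM PTUPB, 0.15 for 20 against 10 uM and -0.25 for enzalutamide, and total fragments moved it by -0.11 for enzalutamide. Under TPM the median enzalutamide effect of the 10 genes was -0.65 against -0.23 for all genes. CDC6 reversed: its 20 uM effect was 0.04 without the control and 0.70 without the 20 uM PTUPB library (but -1.10, passing, without the 20 uM combination), its step from 10 to 20 uM was -0.25 without the 10 uM combination and -0.49 without the 20 uM combination (but 1.30, passing, without the 20 uM PTUPB library), and its enzalutamide effect reversed under TPM and total fragments. Depth limits MCM10 at 20 uM PTUPB, with 4 and 10 fragments.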
